A study of Mus musculus with 4 samples.

Results

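The genes described here are 40 genes of cholesterol and fatty acid synthesis, taken from a fixed list of enzymes, regulators and carriers of sterols. Of the 40, 39 had at least 1 probe matched through its RefSeq accession, and Acat2, the thiolase that makes acetoacetyl-CoA in the cytosol, had none. The 39 genes are covered by 66 of the 56605 probes on the array, and all 66 were well above background on all 4 arrays, so all 39 genes were tested among 13212 gene symbols. RNA was taken from cultured ID8G cells, the mouse ovarian cancer line ID8 marked with a GFP retrovirus, and from GO2 cells. GO2 cells were recovered from omental tumors of female C57BL/6J mice through 2 rounds of injection and sorting of CD45-negative, GFP-positive cells. The first round injected ID8G cells, and the second injected the cells sorted from the first. The cell lines were kept in the same medium with serum, insulin, transferrin and selenite, and each was measured on 2 Agilent arrays in 1 color. GO2 is 1 selected line, and the number of mice behind it is not given in the sources used here, so selection and the history of this line cannot be told apart. Nothing says that the arrays of a line came from separate cultures, so p values measure only the spread between these arrays.

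Cells make cholesterol from acetyl-CoA through mevalonate, squalene and lanosterol, and make fatty acids from the same acetyl-CoA through malonyl-CoA. Many of these enzymes are controlled by the SREBP transcription factors (Srebf1 and Srebf2), which Scap carries out of the endoplasmic reticulum when sterols are scarce and which the Insig proteins hold back when sterols are plentiful. Cholesterol taken up by the cell leaves the lysosome through Npc2 and Npc1, and excess is stored as esters made by Soat1.

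The levels below are log2 intensities relative to the 75th percentile of the same array, and a difference is the mean of the GO2 arrays minus the mean of the ID8G arrays. Each gene is represented by its brightest tested probe, by the mean over the 4 arrays of both lines. Differences of the pathway's genes were mostly small and negative, with 28 of 39 below 0, against 6613 of all 13212 gene symbols. Of the 39 genes, 16 were lower at an adjusted p below 0.05 (limma, Benjamini-Hochberg over 28370 probes), which is 41.0% of them, where 20.0% of all gene symbols tested were lower by the same rule. Only Npc1 was higher, where 21.0% of all gene symbols were. The median difference was -0.20, with quartiles of -0.34 and 0.02, and the median over all gene symbols was 0.00, with quartiles of -0.20 and 0.21. The changes were small, since differences ran from -0.75 (Soat1) to 0.56 (Npc1). No gene reached a 2-fold change at that adjusted p or at an unadjusted p below 0.05, where 3.94% of all gene symbols were at least 2-fold lower and 5.98% at least 2-fold higher. Both GO2 arrays lay below both ID8G arrays for 26 of the 39 genes (39.1% of all gene symbols), above them for 6 (39.4%), and the arrays overlapped for 7. The count of 16 rests on all 4 arrays, as it was 9 without ID8G replicate 1, 9 without ID8G replicate 2, 8 without GO2 replicate 1 and 6 without GO2 replicate 2, where 11.7%, 11.6%, 11.3% and 11.3% of all gene symbols were lower. The genes that were lower in each of these 4 fits were Idi1, Tm7sf2, Msmo1, Soat1, Acss2 and Elovl6. Those that passed in none of the 4 were Pmvk, Fdft1, Sqle, Lss, Srebf1 and Npc2.

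**Figure D1:**
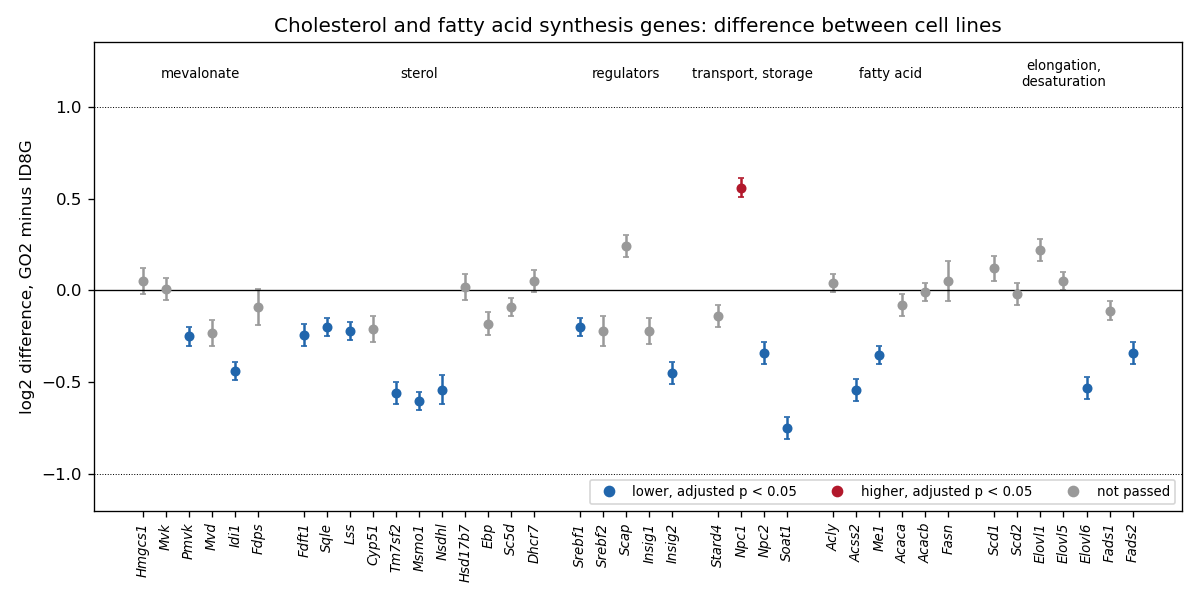
Difference between GO2 and ID8G cells (log2, vertical axis) for the brightest probe of each of 39 genes, ordered by role. Points are limma estimates with standard errors from 2 arrays per line, blue and red mark an adjusted p below 0.05, gray points did not pass, and dotted lines mark a 2-fold change. All points lie between the dotted lines, and Npc1 is the red one.

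**Figure D2:**
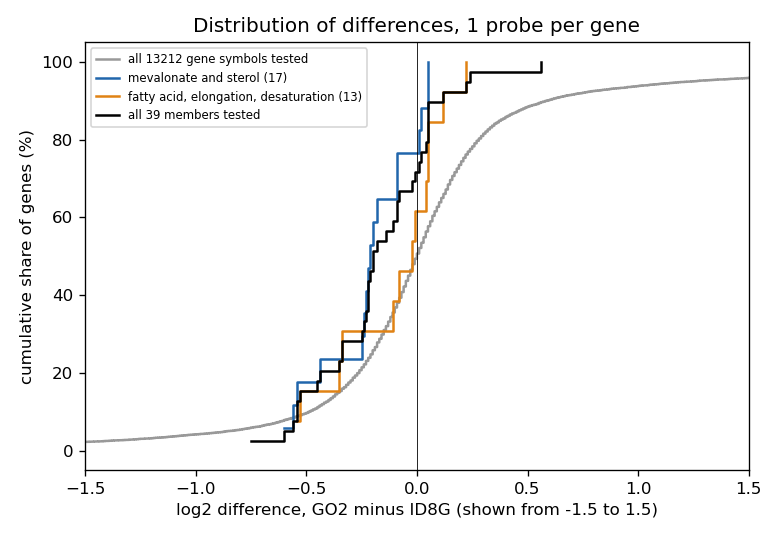
Cumulative share of genes (percent, vertical axis) by log2 difference between GO2 and ID8G cells for all 13212 gene symbols tested, the 39 listed genes, and the branches of 17 mevalonate and sterol genes and 13 fatty acid, elongation and desaturation genes. The line of the mevalonate and sterol genes lies to the left of that of all gene symbols near the middle, with a median of -0.21.

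RefSeq (GRCm38.p6) gave a window upstream of the transcript start for 32 of the 40 genes, among them Acat2, which had no probe. Fdps, Fdft1, Sqle, Stard4, Npc1, Scd1, Scd2 and Fads1 had no window. The promoters of Hmgcs1 and of the 6 genes that were lower in every fit with 1 array left out are shown, since these are the falls that did not depend on 1 array and Hmgcs1 is the listed gene whose window holds a match to the sterol response element. Each is the 150 bases before the start, written 5′ to 3′ along the gene. Capitals mark CCAAT, the box bound by NF-Y, a known partner of SREBP, or its reverse complement ATTGG, and in Hmgcs1 also TCACCCCAC, a match to the sterol response element searched as TCACNCCAC.
Hmgcs1 (chr13:119690201-119690350, plus strand): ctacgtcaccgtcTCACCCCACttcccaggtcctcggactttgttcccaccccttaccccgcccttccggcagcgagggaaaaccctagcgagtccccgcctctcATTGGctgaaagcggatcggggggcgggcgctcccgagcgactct
Idi1 (chr13:8885456-8885605, plus strand): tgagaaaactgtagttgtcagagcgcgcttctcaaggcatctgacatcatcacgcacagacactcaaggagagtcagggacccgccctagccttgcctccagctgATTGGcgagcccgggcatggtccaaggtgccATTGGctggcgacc
Tm7sf2 (chr19:6067851-6068000, minus strand): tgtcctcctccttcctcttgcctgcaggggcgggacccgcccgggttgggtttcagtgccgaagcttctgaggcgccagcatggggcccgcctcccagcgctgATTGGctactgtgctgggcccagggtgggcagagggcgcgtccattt
Msmo1 (chr8:64733579-64733728, minus strand): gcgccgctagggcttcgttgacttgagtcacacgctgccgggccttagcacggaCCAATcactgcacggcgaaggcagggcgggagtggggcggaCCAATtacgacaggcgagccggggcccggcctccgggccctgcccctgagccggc
Soat1 (chr1:156474329-156474478, minus strand): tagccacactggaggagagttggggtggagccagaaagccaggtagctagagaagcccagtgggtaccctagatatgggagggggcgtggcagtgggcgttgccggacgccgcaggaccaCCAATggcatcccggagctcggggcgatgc
Acss2 (chr2:155517893-155518042, plus strand): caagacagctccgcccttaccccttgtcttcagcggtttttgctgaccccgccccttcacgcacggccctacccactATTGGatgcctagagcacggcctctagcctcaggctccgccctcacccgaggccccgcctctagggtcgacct
Elovl6 (chr3:129532236-129532385, plus strand): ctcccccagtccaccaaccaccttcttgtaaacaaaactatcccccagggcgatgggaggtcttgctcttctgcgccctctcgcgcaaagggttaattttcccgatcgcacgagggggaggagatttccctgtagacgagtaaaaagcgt

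Within 250 bases before the start and on either strand, CCAAT was found for 26 of 32 genes (81.2%), against 40.3% of the 10546 tested gene symbols with a window and 33.8% of all 32851 windows. TCACNCCAC was found for Hmgcs1 alone (3.12% of the 32 genes, 1.27% of tested gene symbols and 1.05% of all windows). No other form of the sterol response element was searched, so the remaining windows may hold one. The E-box CACGTG was found for 6 of the 32 genes (18.8%), against 9.54% of tested gene symbols and 6.02% of all windows. These matches describe the windows, and binding was not measured. The 250 bases before Elovl6 hold none of the 3 motifs, and whether a motif goes with the size of a difference was not tested.

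In the mevalonate branch, 2 of 6 tested genes were lower (20.0% of all gene symbols) and none was higher (21.0%), with a median of -0.16. Idi1 interconverts the isopentenyl building blocks. Its level was 5.12 and 5.06 in ID8G cells and 4.64 and 4.65 in GO2 cells. The GO2 arrays were lower without overlap, at 73.5% of the ID8G level (difference -0.44, standard error 0.05, limma adjusted p = 0.0079). Pmvk, the kinase that adds the second phosphate to mevalonate, stood at 5.68 and 5.66 in ID8G cells and at 5.41 and 5.43 in GO2 cells. This was a smaller fall, by 0.25 (standard error 0.05, adjusted p = 0.0253), and the other Pmvk probe, with a difference of -0.20, did not pass. Hmgcs1, which makes HMG-CoA, had levels of 6.47 and 6.43 in ID8G cells and 6.58 and 6.43 in GO2 cells. These arrays overlapped, and the 95% confidence interval of the difference ran from -0.15 to 0.25. The intervals were -0.14 to 0.17 for the mevalonate kinase Mvk and -0.35 to 0.18 for Fdps, which makes farnesyl diphosphate. That of the decarboxylase Mvd, whose adjusted p was 0.0772, was -0.42 to -0.03.

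From squalene on, 6 of 11 genes were lower (20.0% of all gene symbols), none was higher (21.0%) and the median was -0.21. The first enzymes of this stretch differed little. Fdft1, which makes squalene, was at 5.59 and 5.50 in ID8G cells and at 5.30 on both GO2 arrays (84.5% of the ID8G level, adjusted p = 0.0406). Sqle, the epoxidase that acts next and a control point of the pathway, was at 5.86 and 5.85 in ID8G cells and at 5.66 and 5.65 in GO2 cells (87.0%, adjusted p = 0.0434). Lss, which closes the sterol rings, was at 3.72 and 3.70 in ID8G cells and at 3.47 and 3.50 in GO2 cells (85.6%, adjusted p = 0.0352). For all 3 the GO2 arrays lay below the ID8G arrays, and all 3 lost the call when any 1 array was left out. With the replicate number as a block they also did not pass.

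Of the 8 enzymes that act after Lss, Msmo1, Nsdhl and Tm7sf2 were lower and the other 5 did not pass with their brightest probe. Msmo1, the oxidase that starts removal of the paired methyl groups after Cyp51 has acted, was at 7.03 on both ID8G arrays and at 6.39 and 6.46 in GO2 cells. GO2 cells thus had 65.8% of the ID8G level (difference -0.60, standard error 0.05, adjusted p = 0.00368), and the second Msmo1 probe differed by -0.70. Nsdhl, the dehydrogenase of the same demethylation, was at 2.99 and 2.85 in ID8G cells and at 2.43 and 2.33 in GO2 cells. This is 68.7% of the ID8G level (adjusted p = 0.0116), and the call was lost without GO2 replicate 2. Hsd17b7, the reductase that completes this step, had overlapping arrays, with an interval of the difference from -0.16 to 0.20. Tm7sf2, a sterol reductase that follows Cyp51, was at 2.68 and 2.75 in ID8G cells and at 2.17 and 2.15 in GO2 cells. Its difference was -0.56 (standard error 0.06, adjusted p = 0.00468), and the other Tm7sf2 probe differed by -0.47. Cyp51, the lanosterol demethylase, did not pass with its brightest probe (difference -0.21, adjusted p = 0.0704), while its other probe did, with a difference of -0.35. The isomerase Ebp had the same split, with -0.18 in its brightest probe and -0.36 in the other. The intervals for the late enzymes Sc5d and Dhcr7 were -0.23 to 0.05 and -0.11 to 0.22.

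**Figure D3:**
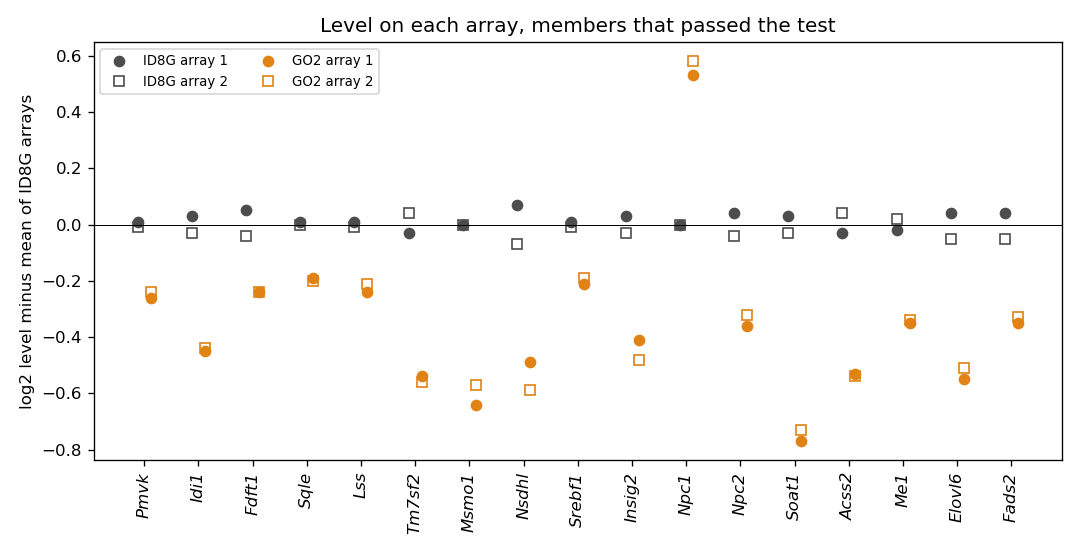
Level of the 17 genes that passed the test on each of the 4 arrays, drawn as the log2 level minus the mean of the ID8G arrays of the same probe. Gray symbols are ID8G arrays, orange symbols are GO2 arrays, circles are replicate 1 and squares are replicate 2. For every gene drawn, the GO2 arrays lie on one side of the ID8G arrays, below for 16 genes and above for Npc1.

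Of the 5 regulators, 2 were lower (20.0% of all gene symbols) and none was higher (21.0%). Insig2, which retains Scap and SREBP in the endoplasmic reticulum, was at 3.36 and 3.30 in ID8G cells and at 2.92 and 2.85 in GO2 cells. All 3 Insig2 probes were lower, by 0.43 to 0.57 on the log2 scale, and the call of the brightest (adjusted p = 0.00975) was lost without GO2 replicate 2. Srebf1, the factor tied mainly to fatty acid genes, was at 4.90 and 4.88 in ID8G cells and at 4.68 and 4.70 in GO2 cells, a difference of -0.20 (standard error 0.05, adjusted p = 0.0429) that passed in no fit with 1 array left out. Srebf2, the factor tied mainly to cholesterol genes, was at 1.70 and 1.60 in ID8G cells and at 1.36 and 1.51 in GO2 cells. The arrays of Srebf2 did not overlap, but the test was not passed (difference -0.22, adjusted p = 0.10). Insig1, itself a target of SREBP, was at 0.51 and 0.38 in ID8G cells and at 0.25 and 0.19 in GO2 cells (difference -0.22, adjusted p = 0.0744). Scap went the other way, with 2.68 and 2.74 in ID8G cells and 2.90 and 3.00 in GO2 cells, and missed the threshold (difference 0.24, adjusted p = 0.0511).

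Among the genes that move and store cholesterol, 2 of 4 were lower (20.0% of all gene symbols) and 1 was higher (21.0%). Soat1, which esterifies cholesterol for storage in lipid droplets, had the largest fall among the listed genes. It was at 5.03 and 4.97 in ID8G cells and at 4.23 and 4.27 in GO2 cells. GO2 cells had 59.4% of the ID8G level (difference -0.75, standard error 0.06, adjusted p = 0.00214), and the 4 Soat1 probes ranged from -0.92 to -0.75. Npc1, the membrane protein that releases cholesterol from the lysosome, was at 0.53 on both ID8G arrays and at 1.06 and 1.11 in GO2 cells. This is 147% of the ID8G level (difference 0.56, standard error 0.05, adjusted p = 0.00428), and Npc1 was higher in all 4 fits with 1 array left out. Npc2, the soluble lysosomal protein that hands cholesterol to Npc1, moved the opposite way. It was at 5.03 and 4.95 in ID8G cells and at 4.63 and 4.67 in GO2 cells (79.1%, adjusted p = 0.018), without overlap, and the call was lost when any 1 array was left out. Stard4, a cytosolic cholesterol carrier, had a difference of -0.14 in its brightest probe, which did not pass, and of -0.45 in the other, which did.

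In fatty acid synthesis, 2 of 6 genes were lower (20.0% of all gene symbols) and the median was -0.05. The core enzymes did not pass the test. The interval of the difference was -0.26 to 0.36 for Fasn, the synthase itself, and -0.10 to 0.18 for Acly, which makes cytosolic acetyl-CoA from citrate. The intervals of the acetyl-CoA carboxylases were -0.23 to 0.07 (Acaca) and -0.15 to 0.13 (Acacb). The 4 Acaca probes disagreed, since the brightest had -0.08 and a dimmer one was higher by 0.22 and passed. The genes that were lower were Acss2 and Me1. Acss2, which makes acetyl-CoA from acetate, was at 1.14 and 1.21 in ID8G cells and at 0.64 and 0.63 in GO2 cells. Its GO2 level was 68.8% of that in ID8G cells (difference -0.54, standard error 0.06, adjusted p = 0.00527). Me1, the malic enzyme that supplies NADPH, was at 5.77 and 5.81 in ID8G cells and at 5.44 and 5.45 in GO2 cells (78.5%, adjusted p = 0.0122). Its second probe differed by -0.52, and the call of the brightest passed in 1 of 4 fits with 1 array left out, the fit without ID8G replicate 1.

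Of the 7 genes of elongation and desaturation, 2 were lower (20.0% of all gene symbols) and the median was -0.02. Elovl6, which lengthens palmitate to stearate, was at 3.50 and 3.41 in ID8G cells and at 2.91 and 2.95 in GO2 cells. The GO2 arrays were lower without overlap (69.5%, difference -0.53, standard error 0.06, adjusted p = 0.00664). Fads2, a desaturase of polyunsaturated fatty acids, was at 3.63 and 3.54 in ID8G cells and at 3.24 and 3.26 in GO2 cells (79.2%, adjusted p = 0.0185). Its 2 probes both passed, and the call of the brightest passed in 1 of the 4 fits, the one without ID8G replicate 2. The stearoyl-CoA desaturases had intervals of -0.06 to 0.31 (Scd1) and -0.18 to 0.13 (Scd2). These genes are close relatives, and whether their probes tell them apart was not tested. Elovl1, which makes very long chains, was higher by 0.22 without overlap of the arrays and missed the threshold (adjusted p = 0.0567), and the intervals of Elovl5 and of the desaturase Fads1 were -0.09 to 0.19 and -0.25 to 0.03. In all, 8 of 17 mevalonate and sterol genes (47.1%) and 4 of 13 fatty acid, elongation and desaturation genes (30.8%) were lower. By the same rule 20.0% of all gene symbols were lower, and differences between these shares were not tested.

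For 21 of the 39 genes the array holds several probes. In 17 of the 21 all probes had the same sign, in 8 every probe passed in one direction, in 7 none passed, and in 6 some passed and some did not (Pmvk, Lss, Cyp51, Ebp, Stard4 and Acaca). The dimmest probe had a more negative difference than the brightest in 13 of the 21 genes. Counted by probe, 31 of the 66 were lower and 2 were higher, where 18.9% of all 28370 tested probes were lower and 17.0% higher.

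**Figure D4:**
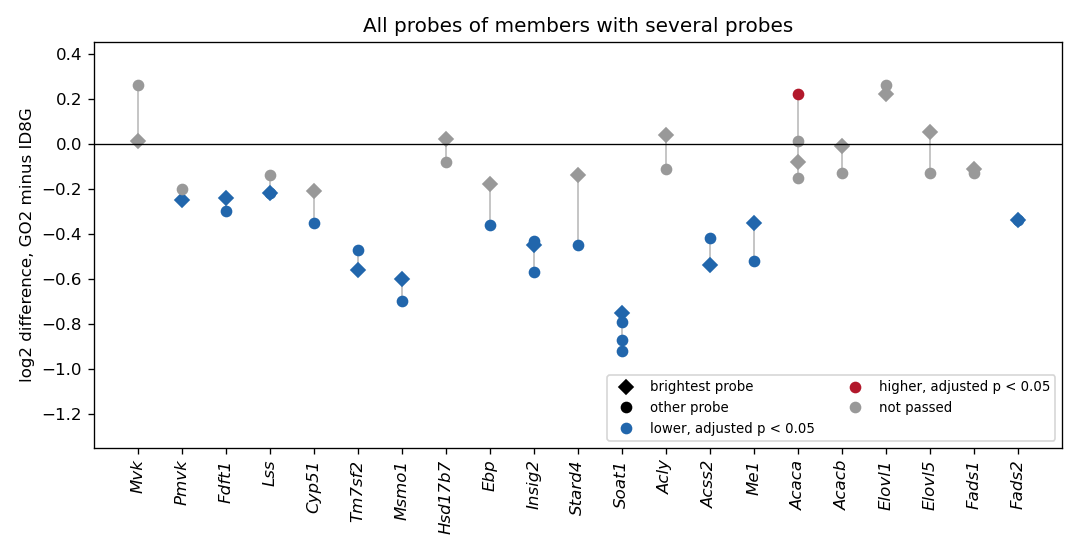
Log2 difference between GO2 and ID8G cells for every probe of the 21 genes with several probes. Diamonds are the brightest probe of a gene, circles are its other probes, blue and red mark an adjusted p below 0.05 and gray points did not pass. The 4 Soat1 probes and the 3 Insig2 probes are all blue, and a dim Acaca probe is red while the other Acaca probes are gray.

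A list of 25 further sterol genes, with enzymes, sterol sensors and exporters, and one of 30 further fatty acid genes were read in the same fit. Of 21 sterol genes tested, 8 were lower and 6 were higher (20.0% and 21.0% of all gene symbols), with a median of -0.05. Of the 6, 4 entered the fit only through the GO2 arrays, so their calls are given as bounds and the count of 6 supports nothing further. The largest differences by the rule for named genes were all increases, and neither ID8G array had a signal well above background for these genes. Ch25h, which makes the oxysterol that restrains SREBP, was at -5.68 and -6.09 in ID8G cells and at -1.42 and -1.64 in GO2 cells. This was at least 4.44-fold higher, where the ID8G level was raised to the lowest signal well above background. Bounds of this kind were not tested. Abca1, the cholesterol exporter, was at -5.85 and -6.12 in ID8G cells and at -1.89 and -2.06 in GO2 cells, at least 3.26-fold higher. Mylip, the ligase that directs the LDL receptor to degradation, was at least 2.24-fold higher, and Soat2, the second esterification enzyme, at least 1.19-fold. A second probe for Abca1 and one for Soat2 had no signal well above background on any array, so each of these increases rests on 1 probe. Abca1 and Mylip are known targets of the liver X receptors, whose activity was not tested. The exporter Abcg1, from the same list, had no signal well above background on any array. Of 26 fatty acid genes tested, 12 were lower and 5 were higher, with a median of -0.17, against the same 20.0% and 21.0% of all gene symbols. By brightest probes, the 4 with the largest differences were Acsl1, an acyl-CoA synthetase, higher by 1.05 (adjusted p = 0.00101), Agpat2, of glycerolipid synthesis, higher by 0.71 (adjusted p = 0.00442), Acsl4, a synthetase that prefers arachidonate, at -0.66 (adjusted p = 0.00279), and Idh1, which supplies NADPH, at -0.65 (adjusted p = 0.00728). A second probe of Mlxipl, outside this ranking, had a larger difference of -2.57.

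**Figure D5:**
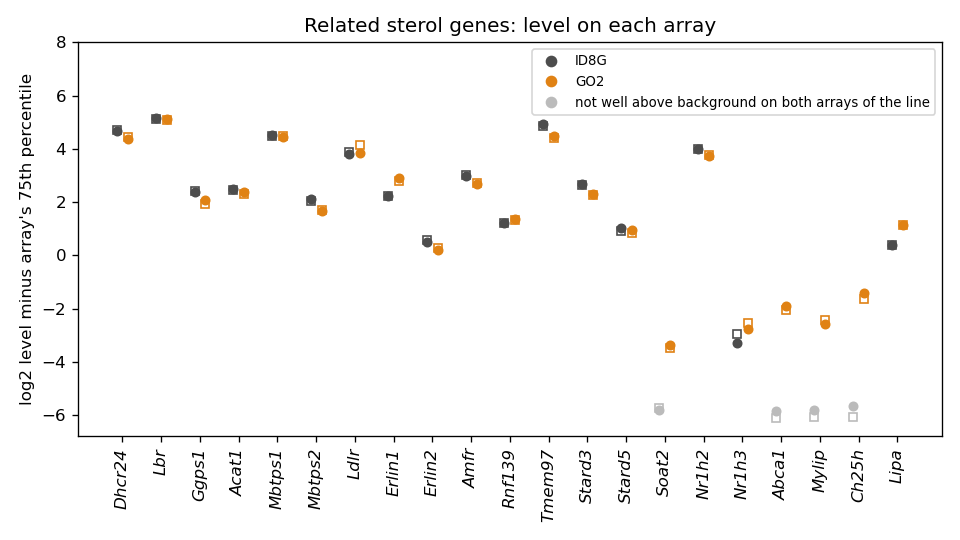
Level (log2, relative to the 75th percentile of the array) of the 21 tested genes of the further sterol list on each array, brightest probe of each gene. Dark symbols are ID8G arrays, orange symbols are GO2 arrays, circles are replicate 1 and squares replicate 2, and light gray symbols mark a line in which the probe lacked a signal well above background on at least 1 array. Ch25h, Abca1, Mylip and Soat2 are light gray in ID8G cells, and levels should be compared within a gene only.

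All 4 arrays shared 1 slide and 1 scan, 27507 to 28876 probes were well above background on an array, and no spot was saturated. After scaling, 7 spike-in transcripts were 0.15 to 0.28 higher on the GO2 arrays, so scaling to them moved the median of all gene symbols from 0.00 to -0.21 and that of the listed genes from -0.20 to -0.41, which leaves the gap between them at -0.20. Under that scaling 22 listed genes were lower and Npc1 was still higher, by 0.35, where 31.9% of all gene symbols were lower and 10.4% higher. The listed markers of ovarian surface and mesothelial cells were well above background on both arrays of each line for 7 of 9 genes, with Krt7 and Lhx9 below on every array. Their summed level, in multiples of the 75th percentile, was lower in GO2 cells, at 373 and 377 against 662 and 655 in ID8G cells, where Krt8, Krt18, Krt19 and Msln were lower, Upk3b (difference 1.08) and Nr2f2 (0.41) were higher and Wt1 did not pass. Of 8 adipocyte markers, Adipoq, Plin1, Cfd and Adrb3 were above background on no array, and the summed level was 1.06 and 0.936 in ID8G cells and 0.698 and 0.592 in GO2 cells, with Fabp4, a fatty acid carrier, at least 6.34-fold lower by its brightest probe and at least 1.81-fold by the other (not well above background on the GO2 arrays). Lep did not pass (difference -0.04). Of 8 macrophage markers, Ptprc, Adgre1, Lyz2 and Tyrobp were above background on no array (sums 22.4 and 25.1 against 21.7 and 21.8). By their brightest probes Csf1r, Cd68, Itgam and Cd14 were above it on all arrays, and Cd14 was lower with both probes (-0.69 and -0.67). The brightest Itgam probe had the highest level in these sums (4.18 and 4.39 in ID8G cells, 4.13 and 4.17 in GO2 cells). A second Itgam probe was above background on no ID8G array and on 1 GO2 array. A second Cd68 probe was above it on 1 array of each line. Of 7 fibroblast markers, Fap, Lum and Thy1 were below on every array (sums 68.7 and 65.9 against 66.8 and 64.5). Dcn, the proteoglycan decorin, fell by 0.63 on the log2 scale (adjusted p = 0.00309). Col3a1 and Pdgfra rose in GO2 cells by 4.2 and 3.7, so the sums hide changes in opposite directions and of unequal size. Pdgfrb was at least 2.42-fold higher, as it was not well above background on the ID8G arrays. The part of all these markers in the differences above was not tested. Of 5 endothelial markers Cdh5, Emcn, Kdr and Tek were above background on no array (0.159 to 0.187 over the 4 arrays).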

How the data were processed

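The authors deposited scanner files from Feature Extraction 11.5.1.1 with the intensity of each spot, background-subtracted but without scaling across arrays, and a table of log2 values from GeneSpring, whose settings are not given in the sources used here. Set against the scanner files, the deposited log2 values match the scanner intensity on a log2 scale after subtraction of each array's 75th percentile and centering on each probe's median over the arrays (r = 1.0 for each array, column medians -0.0486 to 0.1037).

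Spots marked as outliers were left out, spots of a probe were averaged, and the array's 75th percentile was subtracted from the log2 intensity. The fit (limma 3.58.1, R 4.3.3) took probes whose signal passed the background flag on both arrays of either line and had no covariate, and tables and figures were made with python 3.11.15, pandas 2.3.3 and matplotlib 3.10.9. The number of arrays limits the precision, and an exact two-sided permutation test of 1 probe cannot go below p = 0.333. Symbols came from RefSeq accessions (GRCm38.p6), which named 32989 of 56605 probes. The array design is on mm9, so positions are given only for RefSeq promoters. The normexp alternative started from median spot pixels, with an offset of 50, because mean pixels are not among the columns used here. Other alternatives changed the scaling (quantile, median, spike-ins, deposited values), the filter, outlier spots, the variance trend, the test (a block for replicate number, or the methods' t-test) and the choice of probe, or left out 1 array.

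Values on every array are given for genes that passed an adjusted p of 0.05 and for Srebf2, Scap and Insig1, and the 4 largest differences for the further lists. Values of Hmgcs1 and the mention of Abcg1 were added after they were seen. A gene of the further sterol list is not reported here and is left out of its counts. The genes and lists were chosen with earlier results of these data known. The fit was also run on simulated data, and the outcome is not given here. The simulated arrays were independent, so that run cannot show whether arrays of a line came from separate cultures.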

Additional observations from a re-analysis of the deposited data

How the results depend on the processing

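None of the 17 genes that passed changed sign under any of the 16 alternatives, and the count of genes at least 2-fold lower or higher stayed at 0 in each. Of 624 values of single genes compared, 530 kept their side of the threshold, 71 no longer passed and 23 newly passed. The count of lower genes, 16, was 2 with no filter on dim probes (Msmo1 and Soat1), where more probes enter the adjustment. Without the filter 14 had an unadjusted p below 0.05, and 4.31% of all gene symbols were lower. Idi1, Tm7sf2, Acss2 and Elovl6 were among those that lost the call there. The count was 0 with the methods' t-test (16 unadjusted, and 3 of all gene symbols lower after adjustment), which also gave 0 higher genes (1 unadjusted). The cause of the loss under the t-test was not tested. Without 1 array the count of lower genes ranged from 6 to 9, with fewer samples, and the median of the listed genes from -0.21 to -0.15. The count of higher genes, 1, was 2 with normexp or quantile normalization and 3 with an intensity trend or when only probes above background on each of the 4 arrays were kept. The genes added were Elovl1 and Scap, and the cause was not tested. The median, -0.20, was -0.15 with quantile normalization and -0.41 with scaling to the spike-ins, which lowers all differences. With the replicate number as a block 11 genes were lower (16.2% of all gene symbols) and 1 was higher, but the numbers do not pair the arrays, as the deviations of arrays with the same number correlated at 0.0273. The slide as a block was not run because there is 1 slide. Differences of about 0.2 on the log2 scale, in either direction, lie at the limit of 2 arrays per line. The smallest absolute difference that passed was 0.20, and the largest that did not was 0.24 (Scap, a rise).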

Other observations

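The following genes were singled out after their values were seen. Mlxipl encodes ChREBP, the carbohydrate-responsive activator of fatty acid genes, and its probes disagreed. The brightest, A_55_P2045158, was at 2.92 and 2.93 in ID8G cells and at 2.76 and 2.75 in GO2 cells and did not pass (adjusted p = 0.063). The other, A_55_P2119957, which the array assigns to the same transcript, was the brighter of the pair in ID8G cells, at 3.10 and 3.24. In GO2 cells this probe was at 0.52 and 0.69, 16.8% of the ID8G level (difference -2.57, standard error 0.09, limma adjusted p = 0.000427). The acyl-CoA synthetases also split, with Acsl1 at 207% of its ID8G level by its brightest probe and 132% by the other (adjusted p = 0.0187), and Acsl3 at 70.3%, Acsl4 at 63.5% and Acsl5 at 67.6% (adjusted p of the brightest probes between 0.00101 and 0.0112). In the lysosome, Lipa, the acid lipase that frees cholesterol from its esters, was at 169% of the ID8G level (adjusted p = 0.00172).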
